A study of Oryza sativa with 3 samples.

Results

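Of the 289 named miRNAs listed for the series, 60 predicted miRNAs of rice (Oryza sativa) were examined. They were the miRNAs named OsmiR (n = 230) whose first listed genome position was intergenic and whose mature sequence was either 20–23 nt long or 24 nt long with a first base other than A. Each mature sequence was counted once, by its first row, and 14 OsmiR were left out by name, 4 of which met the other criteria. These criteria used length, first base and position but no reads, whereas the grounds for the 14 names are not known here. Of the 4, OsmiR-68 and OsmiR-232 had many more reads after 24 h than after 0 h of imbibition, and OsmiR-9 far fewer. Counts of members called higher or lower therefore do not cover every sequence that met the criteria. The study had also required a minimum number of reads for an OsmiR. The members fell into a shorter subgroup of 28, with 10 sequences of 21 nt, 13 of 22 nt, 5 of 23 nt and none of 20 nt, and a subgroup of 32 sequences of 24 nt. The remaining miRNAs served for comparison, namely 98 intergenic 24-nt OsmiR that start with A, 58 OsmiR in introns or exons, and 59 known miRNAs.

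Reads of 18–30 nt had been obtained from rice embryos, taken from de-hulled Nipponbare seeds that were kept in distilled water at 30 °C in the dark for 0, 12 or 24 h (0, 12 and 24 HAI, hours after imbibition), with no other treatment. The 0 HAI embryos came from dry seed and served as the reference. Each time point had 1 library, made from mixed RNA of 4 plates, so that no difference in these reads has a replicate library. Every test compares 2 libraries, with counting error alone. The study also measured selected miRNAs by stem-loop real-time RT-PCR in biological replicates, OsmiR-20, OsmiR-50, OsmiR-95 and OsmiR-124 among them. It reported that most of those selected, but not all, followed the sequencing, and these measurements were not used here. Reads without molecular identifiers are not independent molecules, and the tissue label was not checked here against marker genes, since only miRNAs were listed.

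MicroRNAs are small RNAs cut by Dicer-like enzymes from 1 arm of a hairpin precursor, and the strand from the other arm is called miRNA*. In plants DCL1 makes the usual products of 21 nt, which mostly start with U and are loaded into AGO1 to cut or repress mRNAs. In rice DCL3 makes products of 24 nt, of which those starting with A are favoured by AGO4, the effector of DNA methylation. Products of 22 nt from plant hairpins are known for starting secondary siRNAs at their targets. Arms, lengths and first bases therefore are the usual features by which a predicted plant miRNA is described.

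The mature sequences of the shorter members on which the results turn are given first, 5′ to 3′, with T for U as in the deposited tables and with the seed (bases 2 to 8) in capitals. They are the most abundant shorter member (OsmiR-156), those with the highest ratios of 24 to 0 HAI (OsmiR-124, OsmiR-87, OsmiR-162 and OsmiR-111), a G+C-rich sequence without reads at 0 HAI (OsmiR-150) and an abundant member near a ratio of 1 (OsmiR-36).
OsmiR-156: tTTGGCTTgcaacgtttgacc
OsmiR-124: gGAATGGAtgcgtagagaaaga
OsmiR-87: gGATATTGgggcggttcaatc
OsmiR-162: gGAATGTCgtctggcctgaga
OsmiR-111: tCATGCGAtccttttggaggc
OsmiR-150: cTCGCCGGcgcgcgcgtgcaccc
OsmiR-36: tAGTACTAggatatgccacatc

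The sequences of 24 nt are shown in the same way for the 4 most abundant members (OsmiR-50, OsmiR-95, OsmiR-207 and OsmiR-129), the member without reads at 0 HAI and with reads in the other libraries that were called higher (OsmiR-148), a member that peaked at 12 HAI (OsmiR-185) and the member whose hairpin holds a known miRNA (OsmiR-196).
OsmiR-50: tTTCATATtataagttgtttgact
OsmiR-95: tTTTTGCTtgcactgtttgaccat
OsmiR-207: tAAAGTTGgacacggaaactcatg
OsmiR-129: tTCATATTataagacgttttgact
OsmiR-148: cCTTGCAAcggtgtggtcggcgcc
OsmiR-185: tTGCGAGAtgtataagttgaattt
OsmiR-196: cGGAGCAGacgggatctcgacctc

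The 60 members had 57 different seeds. OsmiR-29, OsmiR-129 and OsmiR-212 shared the seed TCATATT, and OsmiR-150 and OsmiR-151 shared TCGCCGG, which the known miRNA osa-miR531c also carries. No other seed was shared among members.

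The libraries held 285143, 634097 and 590212 reads of the 289 miRNAs at 0, 12 and 24 HAI, out of 19203513, 22332607 and 17359816 genome-mapped reads. TPM below is reads per 1000000 genome-mapped reads, and 3 reads, taken as the limit that a count of 0 allows, correspond to 0.156, 0.134 and 0.173 TPM in the 3 libraries. The scale matters for every statement on a direction. On the genome-mapped scale the median log2 ratio of 24 to 0 HAI over all 289 miRNAs was 0.97, with 1 read added to each count. With the summed reads of all miRNAs, the summed reads of the known miRNAs, the TMM factors of edgeR or the size factors of DESeq2 as the library totals, the same median was −0.23, −0.24, −0.04 and −0.03. A member with a log2 ratio near 0.97 thus moved with the bulk of the listed miRNAs, and calls are given below with the number that remained under these 4 other scalings.

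Together the 60 members held 4963, 10246 and 8891 reads at 0, 12 and 24 HAI. These were 31.0%, 30.5% and 31.7% of the OsmiR reads, but only 1.74%, 1.62% and 1.51% of all miRNA reads. The shorter subgroup held 2176, 4650 and 4130 reads (113, 208 and 238 TPM), and the 24-nt subgroup held 2787, 5596 and 4761 reads (145, 251 and 274 TPM). Most members were rare, with a median of 40.5 reads over the 3 libraries in the shorter subgroup and 56.5 in the 24-nt subgroup, against 66.5 for the intergenic 24-nt OsmiR starting with A, 94 for all miRNAs and 1300 for the known miRNAs. At least 100 reads over the 3 libraries were reached by 8 shorter and 13 longer members. Of the 28 shorter members 26 were read in every library, as were 29 of the 32 longer ones.

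**Figure D1:**
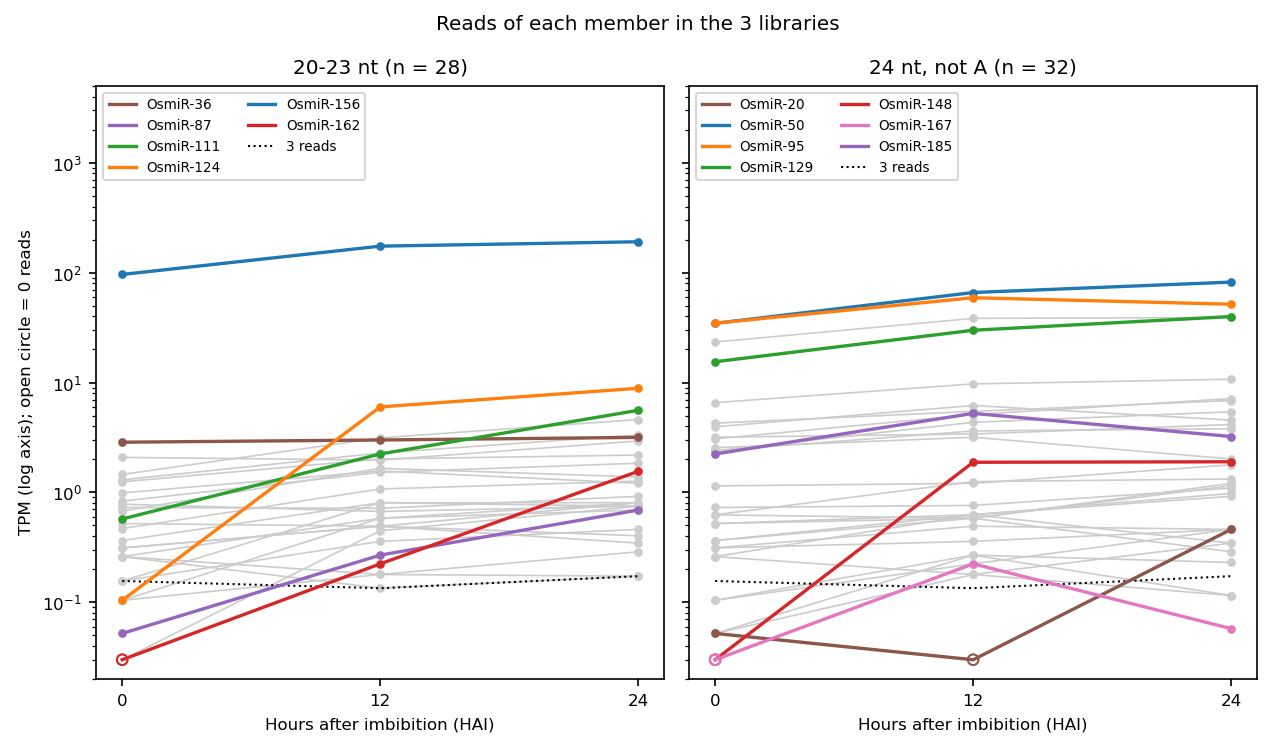
TPM (log axis) of each of the 60 members against hours after imbibition, 28 sequences of 20–23 nt on the left and 32 of 24 nt on the right, with 1 library per time point. Coloured lines are named members, grey lines the others, open circles are 0 reads and the dotted line is 3 reads. OsmiR-156 stands above all other members at 96.3, 174 and 191 TPM, and OsmiR-124, OsmiR-162 and OsmiR-148 start at or below the dotted line.

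The reads of the shorter subgroup were mostly those of 1 sequence, whereas those of the 24-nt subgroup were spread over several. OsmiR-156, of 21 nt, had 1850, 3893 and 3318 reads, which were 85%, 83.7% and 80.3% of the reads of the shorter subgroup. In the 24-nt subgroup OsmiR-50 had 664, 1473 and 1425 reads, or 23.9%, 26.3% and 29.9%, and the top 3 sequences in each library held 63.8%, 65.2% and 63.3%. The shorter subgroup was therefore described with and without OsmiR-156.

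On the genome-mapped scale the ratio of 24 to 0 HAI was 2.10 for the summed reads of the shorter subgroup (95% limits 1.99 to 2.21) and 1.89 for those of the 24-nt subgroup (1.80 to 1.98), but with the summed miRNA reads as totals the ratios were 0.917 and 0.825. The balance between the subgroups needs no library total. At 0, 12 and 24 HAI the shorter members held 43.8%, 45.4% and 46.5% of the members' reads, an odds ratio of 1.11 for 24 against 0 HAI (Fisher's exact test on reads, two-sided p = 0.00315). Between 12 and 0 HAI the difference was smaller (odds ratio 1.06, Fisher's exact test p = 0.0762). Without OsmiR-156 and OsmiR-50, the most abundant member of each subgroup, the share was 13.3%, 15.5% and 19.6%, with an odds ratio of 1.59 (Fisher's exact test p = 4.4e-11). Without the 5 most abundant members of each subgroup it was 28.2%, 29.1% and 32.5%, with an odds ratio of 1.23 (Fisher's exact test p = 0.0379), a setting chosen after seeing the data. The shift thus had the same direction in all 3 forms, and its size depended on which abundant sequences were counted.

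At 24 HAI 12 of the 28 shorter members were called higher than at 0 HAI and none lower, and 12 of the 32 longer members were called higher and none lower (exact conditional test of 2 libraries, Benjamini-Hochberg over 289 miRNAs, adjusted p under 0.05). Over all miRNAs 52.9% were called higher and 1.73% lower, so the members' shares of 42.9% and 37.5% were below this background. That background includes the known miRNAs, 84.7% of which were called higher. The share was 44.8% of the OsmiR and 39.8% of the intergenic 24-nt OsmiR starting with A, near the members' shares. Under the 4 other scalings 4 shorter members in each, and 1, 1, 3 and 3 longer members, were called higher, while 3, 3, 1 and 1 shorter and 8, 8, 5 and 4 longer members were called lower. Over all miRNAs these scalings called 16.3%, 16.3%, 19.4% and 19.4% higher and 20.8%, 21.1%, 14.9% and 14.5% lower. Of the 24 members called higher, 5 (OsmiR-111, OsmiR-124, OsmiR-148, OsmiR-150 and OsmiR-162) kept that call under all 4 scalings. The same count was not made over all miRNAs, so whether this is many or few was not tested. Calls depended on depth, since among miRNAs with at least 100 reads 14 of 21 members (66.7%) and 106 of 141 miRNAs in all (75.2%) were called higher.

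The median log2 ratio of 24 to 0 HAI was 1.12 in the shorter subgroup and 0.72 in the 24-nt subgroup, against 0.97 over all miRNAs, 0.88 for the intergenic 24-nt OsmiR starting with A, 0.95 for OsmiR in introns or exons and 1.52 for the known miRNAs. The shorter subgroup therefore lay 0.16 above and the 24-nt subgroup 0.24 below the median of all miRNAs, distances that no scaling changes. At 12 HAI against 0 HAI 9 shorter and 10 longer members were called higher and none lower, where 48.6% of all miRNAs were called higher and 0.694% lower. Under the other scalings 1 of each subgroup was called higher, with 2 shorter and 1 to 3 longer members lower. Over all miRNAs the 4 scalings called 12.2%, 12.2%, 13.2% and 13.2% higher at 12 than at 0 HAI and 10.8%, 11.5%, 7.99% and 8.68% lower. Between 12 and 24 HAI 4 shorter and 4 longer members were called higher and 2 longer members lower, where 20.1% of all miRNAs were called higher and 8.3% lower. Under the 4 other scalings 2, 2, 2 and 3 shorter and 1, 1, 2 and 3 longer members were called higher in this step, and 1, 1, 0 and 0 shorter and 5, 5, 4 and 4 longer members lower. Over all miRNAs these scalings called 12.1%, 12.1%, 14.2% and 15.9% higher in this step and 18.0%, 18.3%, 14.2% and 12.5% lower. The highest TPM was at 24 HAI for 20 of the 28 shorter and 21 of the 32 longer members, and at 12 HAI for 4 and 10 of them. By the 2-fold rule of the study, a lowest TPM under 0.5 of the highest, 17 shorter members (60.7%) and 18 longer members (56.3%) were differentially expressed, against 61.6% of all miRNAs.

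**Figure D2:**
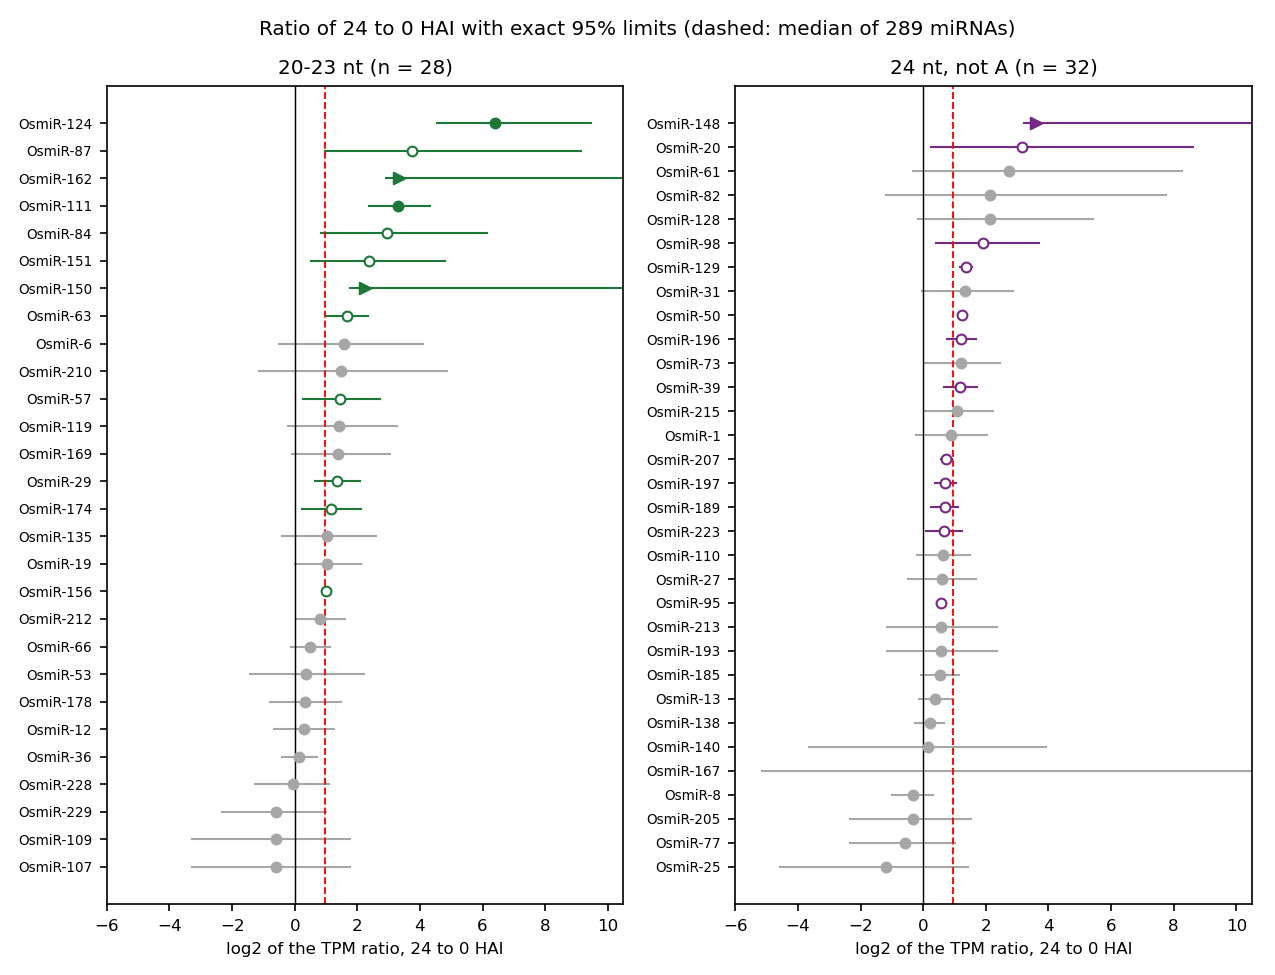
Log2 of the TPM ratio of 24 to 0 HAI for each member, with exact 95% limits that cover counting error. Coloured marks are members called higher on the genome-mapped scale (filled where the call held under the 4 other scalings, which OsmiR-111, OsmiR-124, OsmiR-148, OsmiR-150 and OsmiR-162 did), grey marks are members not called, triangles are lower bounds where 0 HAI had 0 reads (OsmiR-167, also at 0, has no mark) and the dashed line is the median of 289 miRNAs at 0.97.

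The steepest difference among the shorter members was that of OsmiR-124, a 22-nt sequence starting with G, from chr1:673288-673364 (minus strand, MSU 7.0). At 0, 12 and 24 HAI it had 2, 134 and 154 reads, or 0.104, 6 and 8.87 TPM. The ratio of 24 to 0 HAI was 85.2 (95% limits 23.2 to 710, exact test, adjusted p = 4.0e-46), and the ratio of 12 to 0 HAI was already 57.6 (15.6 to 481). OsmiR-124 thus had fewer reads than the 3-read limit at 0 HAI, and at 12 and 24 HAI it was exceeded among the shorter members by OsmiR-156 alone. Its precursor of 77 nt is shown with the mature sequence in capitals, since 21 of its 22 bases were paired in the RNAfold structure.
OsMIR-124: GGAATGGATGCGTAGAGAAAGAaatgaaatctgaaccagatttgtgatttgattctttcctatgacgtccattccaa

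OsmiR-148, of 24 nt and starting with C, had the highest ratio of the longer members when a 0 is counted as 3 reads. It had 0, 42 and 33 reads, so that its TPM was at least 12.2-fold higher at 24 than at 0 HAI, counting 3 reads for the 0 (exact test, adjusted p = 8.4e-11). Its precursor at chr2:3563413-3563511 (minus strand) was rich in G+C, at 79.8%, and 6 of the 24 mature bases were unpaired.
OsMIR-148: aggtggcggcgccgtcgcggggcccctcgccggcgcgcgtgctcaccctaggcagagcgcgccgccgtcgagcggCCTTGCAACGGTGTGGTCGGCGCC

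OsmiR-150, of 23 nt, also lacked reads at 0 HAI and had 10 and 13 reads at 12 and 24 HAI, at least 4.79-fold higher at 24 HAI. Its seed partner OsmiR-151 had 3, 18 and 14 reads, a ratio of 5.16 (1.44 to 28, exact test, adjusted p = 0.0119) that was not called under the other scalings. The mature sequence of OsmiR-150 matched the precursor of OsmiR-151 with 2 mismatches and that of OsmiR-148 with 3, and the precursor of OsmiR-150 was 85.7% G+C. The known miRNA with the same seed, osa-miR531c, had 42, 304 and 72 reads and so peaked at 12 HAI. OsmiR-148, OsmiR-150 and OsmiR-151 thus combined at most 3 reads at 0 HAI with precursors of 79.8%, 85.7% and 79.6% G+C, and the part of base composition in their ratios was not tested.

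More widely, 9 shorter members had a precursor of at least 50% G+C, and 5 of them had a ratio of 24 to 0 HAI above 4 (with 3 reads for a 0), compared with 2 of the 19 others. Among the 24-nt members these numbers were 2 of 6 and 3 of 26. Except for OsmiR-111, the ratios above 4 among the shorter members rest on at most 3 reads at 0 HAI. OsmiR-87 and OsmiR-151, both with G+C-rich precursors, lost their calls under the other scalings. Ratios above 4 were not counted by G+C over all OsmiR, so whether this split is particular to the members was not tested. Over all 60 members Spearman's rho between precursor G+C and the log2 ratio was 0.20, and over the 230 OsmiR 0.17, weak values given as a description over miRNAs that share libraries and sequences.

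The other shorter members called higher at 24 HAI on the genome-mapped scale were OsmiR-63, OsmiR-29, OsmiR-57, OsmiR-174 and OsmiR-84, besides OsmiR-156 and OsmiR-87, OsmiR-111 and OsmiR-162, whose hairpins are described below. OsmiR-63 had 28, 70 and 80 reads, a ratio of 3.16 (2.03 to 5.05), and OsmiR-29 had 25, 51 and 58 reads, a ratio of 2.57 (1.58 to 4.28). OsmiR-84 had 2, 13 and 14 reads, a ratio of 7.74 with wide limits (1.78 to 70.2). None of these 5 was called under another scaling. OsmiR-156 itself had a ratio of 1.98 (1.87 to 2.10, exact test, adjusted p = 8.0e-128), a log2 ratio of 0.99 next to the median of 0.97 over all miRNAs, and with the 4 other totals its log2 ratio was −0.21, −0.22, −0.014 and −0.0042.

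Other shorter members had ratios near 1 on the genome-mapped scale. OsmiR-36 had 55, 67 and 55 reads (2.86, 3 and 3.17 TPM), a ratio of 1.11 (0.747 to 1.64), but it was called lower at 12 and at 24 HAI than at 0 HAI under all 4 other scalings. OsmiR-66 had 40, 44 and 51 reads, a ratio of 1.41 (0.914 to 2.19), and was called lower at 12 than at 0 HAI under those scalings. OsmiR-228 had 15, 15 and 13 reads, a ratio of 0.959 (0.420 to 2.16). On the genome-mapped scale the limits of all 3 include 1, and the upper limit of OsmiR-36 lies below the lower limit of OsmiR-156 (1.87). The lowest ratios in the shorter subgroup were 0.664 for OsmiR-107, OsmiR-109 and OsmiR-229, which had at most 11 reads in any library and were not called, except that OsmiR-229 was called lower with the summed miRNA or known reads as totals.

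Among the 4 most abundant 24-nt members, OsmiR-50 and OsmiR-129 had larger ratios than OsmiR-95 and OsmiR-207. OsmiR-50 had 34.6, 66.0 and 82.1 TPM, a ratio of 24 to 0 HAI of 2.37 (2.16 to 2.61, exact test, adjusted p = 1.6e-80), and OsmiR-129 had 297, 668 and 692 reads, a ratio of 2.58 (2.25 to 2.96, exact test, adjusted p = 1.9e-45). Both were called higher at each step on the genome-mapped scale. Their calls of 24 against 0 HAI remained with TMM or DESeq2 factors but not with the summed miRNA or known reads as totals, and those of 12 against 0 HAI were lost with all 4. OsmiR-95, at the same level as OsmiR-50 at 0 HAI with 666 reads, had 1321 and 896 reads in the later libraries. It was 1.71-fold higher at 12 than at 0 HAI on the genome-mapped scale and then lower at 24 than at 12 HAI (ratio 0.873), and only the second call remained under the other scalings. Its ratio of 24 to 0 HAI was 1.49 (1.34 to 1.65), but its log2 ratio was −0.62, −0.64, −0.43 and −0.42 with the 4 other totals, where it was called lower. OsmiR-207, with 449, 857 and 679 reads, had a ratio of 1.67 (1.48 to 1.89) and likewise was called lower with each of those totals, with log2 ratios of −0.45, −0.47, −0.26 and −0.25.

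The clearest peak at 12 HAI was that of OsmiR-185, which had 43, 117 and 56 reads, or 2.24, 5.24 and 3.23 TPM. It was 2.34-fold higher at 12 than at 0 HAI (1.64 to 3.40) and lower at 24 than at 12 HAI (ratio 0.616), and OsmiR-95 was the other member with this course. Of these calls of OsmiR-185 the first was lost and the second remained under all 4 other scalings. OsmiR-138, with 76, 138 and 79 reads, was called higher at 12 HAI and had a ratio of 24 to 12 HAI of 0.736 that was not called. Under all 4 other scalings its call at 12 HAI was lost, and it was called lower at 24 HAI than at 12 and at 0 HAI. Ratios of 24 to 0 HAI of the next members were 1.63 (OsmiR-197, with 126, 217 and 186 reads), 1.61 (OsmiR-189, with 82, 122 and 119 reads) and 2.26 (OsmiR-39, with 46, 97 and 94 reads), of which the first and second turned below 1 under all 4 other totals and the last under the totals of summed miRNA and known reads. OsmiR-20 was the only member with no read at 12 HAI, having 1, 0 and 8 reads, and OsmiR-167 had 0, 5 and 1 reads. The lowest ratio in the 24-nt subgroup was that of OsmiR-25, with 5, 4 and 2 reads, and OsmiR-8, with 49, 71 and 35 reads, had a ratio of 0.790 (0.497 to 1.24) that was not called, but it was called lower at 24 HAI than at 12 and at 0 HAI under all 4 other scalings.

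The first bases of the subgroups differed in part by construction, since A was excluded for 24 nt. T was first in 19 of the 28 shorter members, and A, C and G in 3 each. In the 24-nt subgroup T was first in 19 of 32, G in 9 and C in 4. Of the members that did not start with A, 76.0% of the shorter and 59.4% of the longer ones started with T, and G was the next base in the 24-nt subgroup. By reads T had 97.7%, 94.7% and 93.4% of the shorter subgroup's reads at 0, 12 and 24 HAI. In the longer subgroup it had 90.3%, 90.8% and 90.4%. The shares of the shorter subgroup were mostly those of OsmiR-156. It had 1850, 3893 and 3318 of the 2127, 4404 and 3858 reads that started with T. All other shorter members together had 326, 757 and 812 reads. The share of G in the shorter subgroup came from OsmiR-124, OsmiR-162 and OsmiR-87, which together had 3, 145 and 193 reads in the 3 libraries, and all 3 were called higher at 24 HAI. The 3 shorter members starting with C (OsmiR-57, OsmiR-150 and OsmiR-151) were also called higher, as were 6 of the 19 starting with T and none of the 3 starting with A. By length, 5 of 10 members of 21 nt, 5 of 13 of 22 nt, 2 of 5 of 23 nt and 12 of 32 of 24 nt were called higher. These counts are on the genome-mapped scale, where 52.9% of all miRNAs were called higher. Of the shorter members, 4 (OsmiR-111, OsmiR-124, OsmiR-150 and OsmiR-162) kept the call under the 4 other scalings, while OsmiR-57, OsmiR-87 and OsmiR-151 did not.

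**Figure D3:**
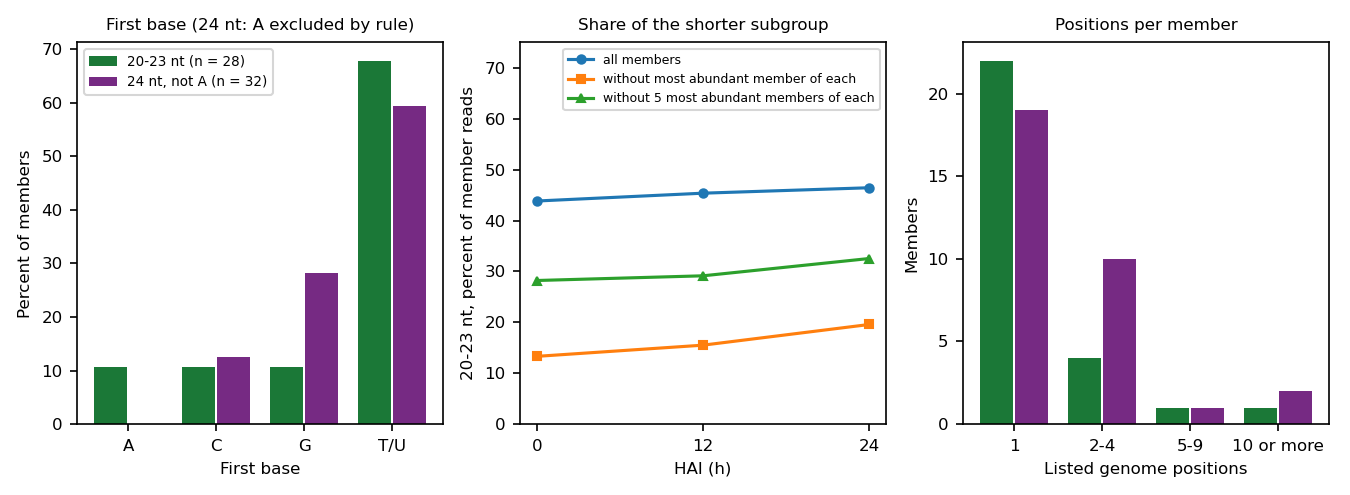
First base of the members in percent of each subgroup (left), percent of the members' reads held by the shorter subgroup against hours after imbibition (middle) and number of members by listed genome positions (right), with green for 20–23 nt and purple for 24 nt in the bar charts. The share of the shorter subgroup was 43.8%, 45.4% and 46.5% with all members and 13.3%, 15.5% and 19.6% without OsmiR-156 and OsmiR-50, and 22 shorter and 19 longer members had 1 position.

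The mature sequence was on the 5p arm in 14 of 28 shorter and 15 of 32 longer members. A miRNA* was listed for 4 shorter and 6 longer members, 10 in all. The 60 members had 102 precursor rows and 150 positions on all 12 chromosomes. A single position was listed for 22 shorter members and 19 longer members. Several listed positions were thus more frequent in the 24-nt subgroup (13 of 32) than in the shorter one (6 of 28). Listed positions need not be all the loci of a sequence. OsmiR-66 and OsmiR-174, with 1 listed position each, also lay without mismatch in precursors of another OsmiR, as given below. OsmiR-228 had the most positions, 27 on 11 chromosomes, followed by OsmiR-39 with 14, OsmiR-1 with 13, OsmiR-8 with 9 and OsmiR-150 with 7. A member with several positions has the same reads in each, and its reads cannot be assigned to 1 locus. OsmiR-1 and OsmiR-50 had 1 further position in an intron, OsmiR-95 had 1 in an exon and OsmiR-150 had 1 of each.

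The hairpins of the shorter subgroup were somewhat shorter and richer in G+C. The median precursor was 84 nt (48 to 237) for the shorter members and 97 nt (52 to 239) for the longer ones, and the median G+C content was 40.0% and 28.3%. The deposited folding energies (MFE, minimal folding free energy) had medians of −39.55 and −40.92 kcal/mol. The MFEI, which scales the energy by length and G+C and for which the study accepted values above 0.85 or else a listed miRNA*, had a median of 1.10 in the shorter and 1.22 in the longer subgroup, both below the 1.44 of the intergenic 24-nt OsmiR starting with A. It was above 0.85 in 28 of 28 shorter and 30 of 32 longer members, and the exceptions were OsmiR-25 (0.707) and OsmiR-128 (0.713), for both of which a miRNA* was listed. In the RNAfold structures a median of 3 mature bases in the shorter and 4 in the longer subgroup were unpaired, and 22 and 18 members had at most 4 unpaired bases. Precursors over 150 nt were found for 4 shorter and 8 longer members. Lengths and G+C contents were taken from the listed precursor sequences. For 3 shorter and 4 longer members the deposited length differed from that sequence, for OsmiR-95 with 127 against 173 nt. For OsmiR-8 the length was equal, but the deposited G+C content was 46.43% against 48.21% in the listed sequence. The deposited MFE and MFEI of these members, OsmiR-8 included, may therefore belong to another hairpin. With the MFE of RNAfold on the listed sequences the median MFEI was 1.09 in the shorter and 1.22 in the longer subgroup.

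**Figure D4:**
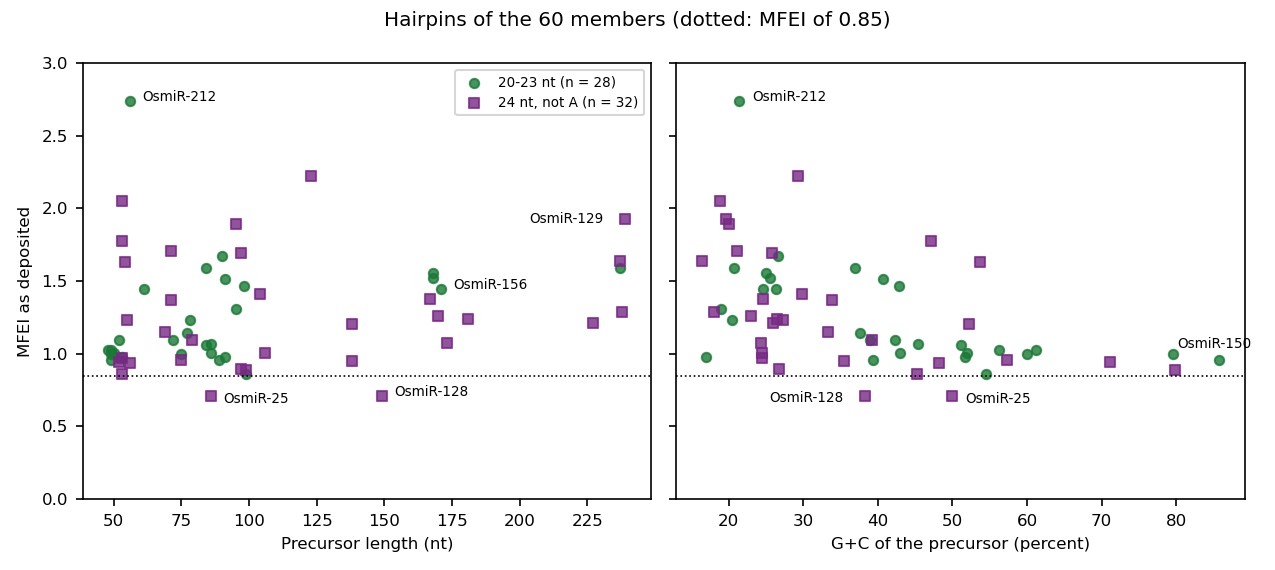
Deposited MFEI of the first listed precursor of each of the 60 members against its length in nt (left) and its G+C content in percent (right), with circles for 20–23 nt, squares for 24 nt and a dotted line at 0.85. Length and G+C are of the listed sequence. For 7 members the deposited length differs from it, and for OsmiR-8 the deposited G+C alone. OsmiR-212 lies highest at 2.74, OsmiR-25 and OsmiR-128 lie under the dotted line, and the precursors richest in G+C lie near an MFEI of 1.

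OsmiR-212 had the highest MFEI of the members, 2.74, with a precursor of 56 nt at chr5:22622513-22622568 (minus strand) in which all 21 mature bases were paired. Its reads were 24, 45 and 38. Its sequence is printed for the near complementarity of its arms.
OsMIR-212-1: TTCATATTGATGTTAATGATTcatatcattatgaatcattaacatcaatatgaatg

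The most abundant member, OsmiR-156, came from a hairpin of 171 nt at chr12:19677360-19677530 (plus strand) with an MFEI of 1.44, 26.3% G+C and 19 of 21 mature bases paired. No miRNA* was listed for it. Its sequence is given because it was the single source of most reads of the shorter subgroup.
OsMIR-156: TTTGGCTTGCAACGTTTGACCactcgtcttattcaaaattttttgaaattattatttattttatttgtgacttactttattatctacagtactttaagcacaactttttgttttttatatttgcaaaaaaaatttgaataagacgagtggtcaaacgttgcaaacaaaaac

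Members were related to each other across the length limit. With an identical run of at least 12 nt on either strand as the criterion, 20 members (11 shorter and 9 longer) formed 6 families. The largest in reads after that of OsmiR-156 held OsmiR-50, OsmiR-129 and OsmiR-98 of 24 nt and OsmiR-29 of 23 nt, with 991, 2206 and 2192 reads in all and a ratio of 24 to 0 HAI of 2.45 (2.27 to 2.64). Each of the 4 was called higher at 24 HAI on the genome-mapped scale. Capitals mark the run shared with OsmiR-50 (in OsmiR-50, with OsmiR-29), which in OsmiR-98 is on the opposite strand.
OsmiR-50: tTTCATATTATAAGTTGTTTGAct
OsmiR-29: TTCATATTATAAGTTGTTTGAtt
OsmiR-129: TTCATATTATAAGacgttttgact
OsmiR-98: tcaaacgACTTATAATATGAAAtg

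OsmiR-29 starts at the second base of OsmiR-50 and shares a run of 21 nt with it. The reverse complement of OsmiR-29 was also found without mismatch in a precursor of OsmiR-50. The family of OsmiR-156 and that of OsmiR-95 both ended in or near the run GTTTGACC. It was carried by 6 members, and by 8 of the 289 miRNAs (2.77%) when either strand is counted.
OsmiR-156: tttggCTTGCAACGTTTGACC
OsmiR-135: ttttCTTGCAACGTTTGACCact
OsmiR-169: tttgtttgtAACGTTTGACCact
OsmiR-213: ttttatCAACGTTTGACCattcgt
OsmiR-95: tttttgCTTGCACTGTTTGACCAt
OsmiR-138: tttttaCTTGCACTGTTTGACCAc

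Capitals mark the run shared with OsmiR-156 in the first 4 sequences and that shared by OsmiR-95 and OsmiR-138 in the last 2. Related sequences differed widely in reads. OsmiR-156 held 99%, 99.1% and 99% of its family's reads, while OsmiR-135 had 7, 18 and 13 reads, OsmiR-169 had 6, 11 and 14 and OsmiR-213 had 6, 8 and 8. The pair of OsmiR-95 and OsmiR-138 had 742, 1459 and 975 reads and a ratio of 1.45 (1.32 to 1.6), lower than the ratio of 2.45 of the OsmiR-50 family, whose limits do not overlap with it.

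Another family held OsmiR-119, OsmiR-84, OsmiR-107, OsmiR-210, OsmiR-20 and OsmiR-82, which had only 16, 40 and 46 reads together but was tied by shared runs to 19 further listed OsmiR. Runs shared with OsmiR-119 are in capitals.
OsmiR-84: ttttcAACCGGGACTAAAGATC
OsmiR-107: tcAACCGGGACTAAAGATCtt
OsmiR-20: cAACCGGGACTAAAGATCgatcta

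OsmiR-84 and OsmiR-20 were called higher at 24 HAI on the genome-mapped scale and OsmiR-107, with 5, 4 and 3 reads, was not. The remaining families were the pairs of OsmiR-66 with OsmiR-174 and of OsmiR-27 with OsmiR-229, and the latter pair shared a run with 8 further OsmiR. Counting any other listed miRNA, 46.4% of the shorter and 50% of the longer members shared a run of 12 nt, close to the 49.1% of all miRNAs and below the 67.3% of the intergenic 24-nt OsmiR starting with A.

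Near copies also lay in the precursors of other miRNAs. With up to 3 mismatches on either strand, 17 shorter and 15 longer mature sequences matched a precursor listed under another name. OsmiR-66 and OsmiR-174 were contained without mismatch in all 5 precursors of OsmiR-86, a 24-nt OsmiR starting with A that had 725, 1338 and 814 reads, and their reads cannot be told apart from products of those loci. OsmiR-66 and OsmiR-174 also matched precursors of OsmiR-196 with 1 mismatch.

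In 4 members the precursor held the sequence of a known miRNA on the other arm, with at most 3 mismatches. They were 3 of the 28 shorter and 1 of the 32 longer members. At any place in the precursor, such a match occurred in 1 of 98 intergenic 24-nt OsmiR starting with A. That match, of osa-miR1862abc in OsmiR-146, lay on the mature sequence itself and not on the other arm. Matches at any place also occurred in 7 of 58 OsmiR in introns or exons. Of the 14 OsmiR left out by name 6 had a match, so the counts depend on which names were left out. In plants miR393 targets the auxin receptors of the TIR1/AFB family, miR171 targets GRAS transcription factors of the SCARECROW-LIKE type and miR166 targets class III HD-ZIP transcription factors. The precursors are shown with the known sequence in capitals, and the OsmiR at the opposite end.
OsMIR-111 with osa-miR393a: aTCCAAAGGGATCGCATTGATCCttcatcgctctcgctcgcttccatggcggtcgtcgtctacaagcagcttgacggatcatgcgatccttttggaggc
OsMIR-87 with osa-miR171bcde: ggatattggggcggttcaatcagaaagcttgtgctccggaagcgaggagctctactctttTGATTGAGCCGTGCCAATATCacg
OsMIR-162 with osa-miR166i: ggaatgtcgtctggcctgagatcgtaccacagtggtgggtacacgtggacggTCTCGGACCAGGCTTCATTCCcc
OsMIR-196-1 with osa-miR5795: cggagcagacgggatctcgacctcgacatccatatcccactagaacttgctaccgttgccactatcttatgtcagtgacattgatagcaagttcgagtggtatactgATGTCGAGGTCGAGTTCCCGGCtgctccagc

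For OsmiR-111 and OsmiR-87 the listed loci also overlapped. The precursor of OsmiR-111 at chr1:2309156-2309254 (minus strand) contained that of osa-miR393a at chr1:2309157-2309253, and the precursor of OsmiR-87 at chr8:5369162-5369245 (plus strand) contained a precursor of osa-miR171bcde at chr8:5369165-5369242. The sequence in the OsmiR-162 precursor at chr10:14483305-14483379 (minus strand) differed from osa-miR166i by 1 mismatch. The precursors listed for osa-miR166i and osa-miR5795 lay elsewhere in the genome than those of OsmiR-162 and OsmiR-196.

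OsmiR-111 had 11, 50 and 97 reads at 0, 12 and 24 HAI and osa-miR393a had 16, 33 and 70. The OsmiR arm thus held 40.7% of the reads of both arms at 0 HAI (exact 95% interval 22.4% to 61.2%), 60.2% at 12 HAI (48.9% to 70.8%) and 58.1% at 24 HAI (50.2% to 65.7%), intervals that overlap. Both arms were higher at 24 than at 0 HAI, OsmiR-111 with a ratio of 9.75 (5.22 to 20.2, exact test, adjusted p = 1.3e-19) and osa-miR393a with a ratio of 4.84 (2.78 to 8.93, exact test, adjusted p = 5.4e-10). OsmiR-111 was also called higher at each step on the genome-mapped scale. Under all 4 other scalings its calls of 24 against 0 and 24 against 12 HAI remained and that of 12 against 0 HAI was lost.

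The other 3 pairs were less balanced. OsmiR-87 had 1, 6 and 12 reads beside 195, 378 and 272 reads of osa-miR171bcde, a share of 0.510%, 1.56% and 4.23% (exact 95% intervals 0.0129% to 2.81%, 0.576% to 3.37% and 2.20% to 7.26%). Its ratio of 24 to 0 HAI was 13.3 with very wide limits (1.96 to 567), against 1.54 (1.28 to 1.86) for the known arm, whose reads were summed over 4 precursors. OsmiR-162 had 0, 5 and 27 reads beside 5843, 9281 and 7689 reads of osa-miR166i, and was at least 9.96-fold higher at 24 than at 0 HAI, where the known miRNA had a ratio of 1.46 (1.41 to 1.51). OsmiR-196 had 59, 114 and 124 reads beside 52, 93 and 58 reads of osa-miR5795, and its share was 53.2% (43.4% to 62.7%), 55.1% (48.0% to 62.0%) and 68.1% (60.8% to 74.8%). In all 4 pairs the OsmiR had the larger ratio of 24 to 0 HAI. The 95% limits overlapped for OsmiR-111 and OsmiR-196 and were separate for OsmiR-87 and OsmiR-162. Those of OsmiR-87 and its partner nearly met, at 1.96 and 1.86, and rested on 1 read of OsmiR-87 at 0 HAI. The intervals of its share at 0 and 24 HAI overlapped. The listed osa-miR166i sequence differs by 1 base from the stretch in the OsmiR-162 hairpin, so that hairpin does not hold it. The reads of OsmiR-196 and osa-miR5795 are not shown to come from the same hairpin, since the listed positions did not overlap. The reads of osa-miR171bcde, the partner of OsmiR-87, can come from any of 4 precursors. The ratios of OsmiR-87, OsmiR-162 and OsmiR-196 and their partners are thus not a comparison of arms known to be of 1 hairpin. Of the 5 members that kept their call under every scaling, OsmiR-111 and OsmiR-162 are in these 4 pairs. Without the 4 members 9 shorter and 11 longer members remained called higher at 24 HAI.

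**Figure D5:**
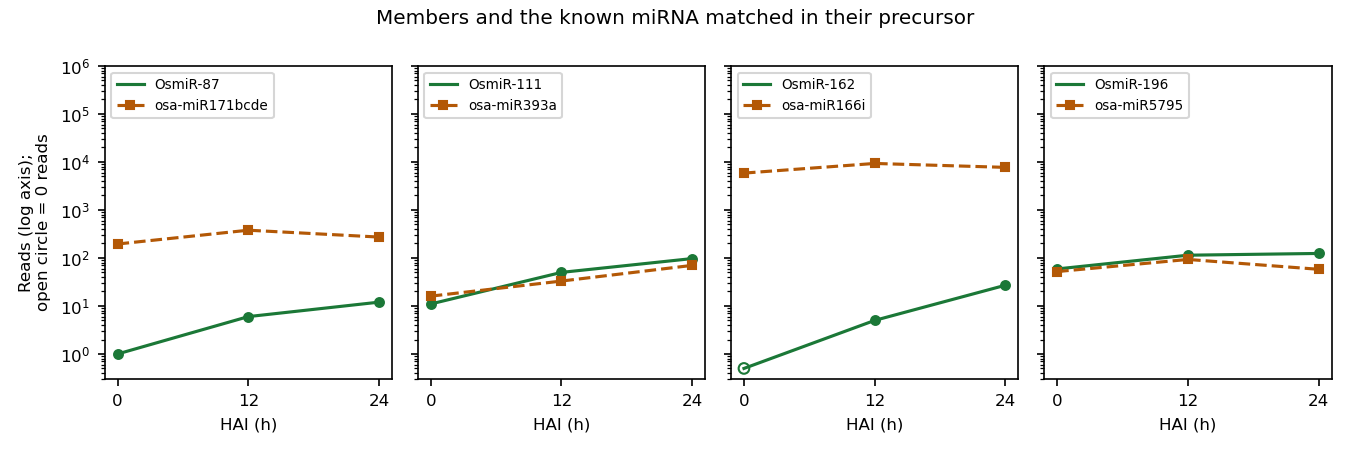
Reads (log axis) of OsmiR-87, OsmiR-111, OsmiR-162 and OsmiR-196 (green lines) and of the known miRNA matched in each precursor (brown dashed lines) at 0, 12 and 24 HAI, with 1 library per time point and an open circle for 0 reads. OsmiR-111 and OsmiR-196 lie near their partners, at 97 against 70 and 124 against 58 reads at 24 HAI, whereas OsmiR-87 and OsmiR-162 lie far below theirs, at 12 against 272 and 27 against 7689.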

How the data were processed

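The 3 small RNA libraries, 1 for each time point by its label, were 0, 12 and 24 HAI. The read counts were deposited by the authors, who filtered the reads, kept 18–30 nt, mapped them with Bowtie to MSU 7.0, removed structural RNAs and predicted the OsmiR with miRDeep2. The TPM values deposited by the authors equal counts scaled by 1 total per library in all 392, 404 and 407 precursor rows with reads at 0, 12 and 24 HAI (to within 1 in 100000), and the genome-mapped totals were recovered from this relation. The authors also deposited the percent of G+C of each OsmiR precursor and the folding scores MFE and MFEI. The known miRNAs were listed in 2 identical copies, and 1 was used.

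For each pair of libraries, a miRNA's reads were tested as a binomial split expected from the genome-mapped totals (exact, two-sided). The p-values were adjusted after Benjamini-Hochberg over every miRNA read in either library, and 0.05 was the limit. Ratios have exact 95% limits. A 0 was set to 3 reads for a lower bound. Log2 ratios had 1 read added. Named members are, per subgroup, the 5 with the most reads, the 5 highest and 5 lowest ratios of 24 to 0 HAI among members with at least 10 reads in a library (counts under 3 set to 3 for this ranking), members with 0 reads in a library, the leading member of each family, and the extremes of loci, MFEI and precursor length. Further members were named after their values were seen, for shared sequences, for their arms or for a peak at 12 HAI. Families were linked by identical runs of at least 12 nt, and known sequences were searched in precursors with up to 3 mismatches. The alternatives were 4 other scalings, a filter of 10 reads, added reads of 0.5 or 2, other run lengths, other membership and the MFE of RNAfold. The test was checked on simulated data. The members, lists and tests were chosen with earlier results of these data known. Scaling factors alone came from DESeq2 1.42.0 and edgeR 4.0.16 under R 4.3.3, folding from RNAfold 2.7.2, and the rest from scipy 1.17.1, pandas 2.3.3, networkx 3.6.1, numpy 2.4.6 and matplotlib 3.10.9 with Python 3.11.15.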

Additional observations from a re-analysis of the deposited data

Results flagged for a closer look

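One 20-nt row among the predicted miRNAs has no name and entered no comparison, although its length would fit the shorter subgroup. Its reads at 0, 12 and 24 HAI were 39, 83 and 62, all above the 3 reads taken as the limit for a count of 0. It is given as a value, and what it is was not tested.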

How the results depend on the processing

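No paired analysis was possible because each time point has 1 library. The library total decided most calls. In the order summed miRNA reads, summed known miRNA reads, TMM and DESeq2 factors, the calls of 12 against 0 HAI were 1, 1, 1 and 1 higher and 2, 2, 2 and 2 lower for the shorter subgroup (main 9 and 0), and 1, 1, 1 and 1 higher and 3, 3, 1 and 1 lower for the 24-nt subgroup (main 10 and 0). For 24 against 0 HAI they were 4, 4, 4 and 4 higher and 3, 3, 1 and 1 lower (main 12 and 0), and 1, 1, 3 and 3 higher and 8, 8, 5 and 4 lower (main 12 and 0). For 24 against 12 HAI they were 2, 2, 2 and 3 higher and 1, 1, 0 and 0 lower (main 4 and 0), and 1, 1, 2 and 3 higher and 5, 5, 4 and 4 lower (main 4 and 2). The shares of all miRNAs called under each scaling are given with these calls in the results above. Requiring a 95% limit beyond 2-fold left 2, 5 and 1 shorter and 1, 3 and 1 longer members higher in the 3 comparisons, and 0 longer members lower between 12 and 24 HAI. With the 4 left-out shorter OsmiR added back, 1 shorter sequence was lower at 24 than at 0 HAI and 1 lower than at 12 HAI. The 2-fold rule selected 11 shorter members with TMM or DESeq2 factors (main 17), and 11 longer ones with the summed miRNA reads, TMM or DESeq2 factors or a filter of 10 reads (main 18). Neither the 95% limit beyond 2-fold nor these settings of the 2-fold rule were counted over all miRNAs. Whether these member counts are many or few was therefore not tested.

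The ratio of summed reads, 24 to 0 HAI, was 0.917, 0.909 and 1.05 for the shorter subgroup with the summed miRNA reads, the summed known reads and TMM (main 2.10, exact p = 0.0758 with TMM), and 0.825, 0.818, 0.943 and 0.950 for the 24-nt subgroup with the 4 totals in order (main 1.89). The log2 ratio turned negative for OsmiR-95 (−0.62, −0.64, −0.43, −0.42), OsmiR-156 (−0.21, −0.22, −0.014, −0.0042), OsmiR-189 (−0.52, −0.53, −0.32, −0.31), OsmiR-197 (−0.49, −0.50, −0.30, −0.29), OsmiR-207 (−0.45, −0.47, −0.26, −0.25) and OsmiR-223 (−0.54, −0.55, −0.35, −0.34) with all 4 totals. With the summed miRNA and known reads it did so for OsmiR-39 (−0.034, −0.048) and OsmiR-174 (−0.093, −0.11), and with the known reads for OsmiR-196 (−0.0039). Of the 24 called members, 5, 5, 7 and 7 kept the call under the 4 totals. Which total fits these libraries was not tested. The odds ratio between the subgroups kept its direction and its call under the membership alternatives (1.11 to 1.59). The median log2 ratio lay between 1.03 and 1.20 for the shorter and 0.69 and 0.72 for the 24-nt subgroup with 0.5 or 2 reads added or a filter of 10 reads, and 16 to 25 members were in families with runs of 14 to 10 nt. Depth limits the members with under 10 reads in every library, 4 shorter and 8 longer, for which only large differences could be called.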

Other observations

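Among OsmiR left out by name, 4 intergenic ones met the criteria of the shorter subgroup. OsmiR-68, of 22 nt, had 53, 1355 and 1594 reads at 0, 12 and 24 HAI, a ratio of 24 to 0 HAI of 33.3 (95% limits 25.3 to 44.6), and its precursor holds the sequence of osa-miR156abcei on the other arm without mismatch. OsmiR-232, of 21 nt, had 8, 39 and 145 reads, a ratio of 20.1 (9.91 to 47.3), and its precursor holds osa-miR1861g with 2 mismatches. OsmiR-9, of 23 nt, had 364, 597 and 4 reads, and was lower at 24 HAI (ratio 0.0122, limits 0.00329 to 0.0314). OsmiR-44, of 21 nt, had 5, 12 and 9 reads. OsmiR-68 was thus second only to OsmiR-156 among shorter intergenic sequences at 24 HAI. With these 4 sequences the shorter subgroup had 14 of 32 members higher and 1 lower at 24 than at 0 HAI, where 52.9% of all miRNAs were higher.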
